A study of Mus musculus with 9 samples.

Results

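The 10 genes described here encode enzymes of mitochondrial beta-oxidation, the pathway that shortens fatty acids to acetyl-CoA. They were chosen by name as members of the pathway, with earlier results of these data known, and no measured value entered the rule. Acadvl, Acadl, Acadm, Acads, Hadha and Hadhb belong to the core spiral, Decr1, Ech1 and Eci1 are auxiliary enzymes, and Etfdh passes the electrons on. All 10 are present among the 49585 rows of the deposited table, and all 10 are among the 12670 genes with enough counts to be tested. The question was whether the core and the auxiliary genes differed in how they varied with the heart failure model and with the transgene.

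RNA was measured by bulk sequencing in the whole ventricle, without atria and valves, of male hybrids of C57BL/6 and ICR mice, in 3 groups of 3 libraries. All groups carried Tcf21iCre, an inducible recombinase driven by a gene of the fibroblast lineage, with the R26 tdTomato reporter, and the labels give tamoxifen for all of them (2 mg per day for 5 days at week 5). Ctrl mice were kept on normal chow. In Ctrl_HF mice heart failure with preserved ejection fraction was modelled by a diet with 60% of its kilocalories from fat, combined for 15 weeks with L-NAME, which blocks nitric oxide synthases and was dissolved in the drinking water at 1.0 g/L. TTg_HF mice received the same diet and L-NAME and carried the MGTH2A transgene, which the recombinase can switch on only in cells of the Tcf21 lineage. A transgenic group on chow is not analysed here, so diet, drug and transgene together separate TTg_HF from Ctrl. Ages are not given, and nothing in the labels says whether each library is a separate animal, so the p-values measure the spread between these libraries, which may in part be technical.

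In each turn of the spiral an acyl-CoA dehydrogenase removes hydrogen from the fatty acyl-CoA, a hydratase adds water, a second dehydrogenase oxidises the product, and a thiolase releases acetyl-CoA. The dehydrogenases for very long, long, medium and short chains divide the first step by chain length, and the mitochondrial trifunctional protein, made of Hadha and Hadhb, carries out the remaining steps for long chains. Unsaturated fatty acids have double bonds that the spiral cannot process, and the auxiliary isomerases and the dienoyl-CoA reductase move or remove them. Electrons from the first step reach the respiratory chain through the electron transfer flavoprotein and its dehydrogenase Etfdh. The adult heart draws most of its energy from fatty acids, and many of these genes are known targets of PPAR and ERR nuclear receptors, which bind DNA at copies of the hexamer AGGTCA.

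The sequences just before the start sites of 4 of the genes are shown to place this hexamer in genes of different roles, in 2 that hold it (Acadvl and Acadm) and 2 that do not (Hadhb and Ech1). They are the 250 bases upstream of each start in RefSeq (GRCm38.p6), read 5′ to 3′ in the direction of the gene. Capitals mark the hexamer on either strand. Acadvl lies on the minus strand (chr11:70015429-70015678), Acadm on the minus strand (chr3:153944644-153944893), Hadhb on the plus strand (chr5:30155003-30155252) and Ech1 on the plus strand (chr7:28825088-28825337).
Acadvl: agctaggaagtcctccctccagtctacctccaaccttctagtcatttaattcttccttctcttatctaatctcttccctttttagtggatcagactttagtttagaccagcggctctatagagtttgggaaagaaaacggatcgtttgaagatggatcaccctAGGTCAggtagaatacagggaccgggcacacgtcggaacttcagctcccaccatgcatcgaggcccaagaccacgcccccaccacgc
Acadm: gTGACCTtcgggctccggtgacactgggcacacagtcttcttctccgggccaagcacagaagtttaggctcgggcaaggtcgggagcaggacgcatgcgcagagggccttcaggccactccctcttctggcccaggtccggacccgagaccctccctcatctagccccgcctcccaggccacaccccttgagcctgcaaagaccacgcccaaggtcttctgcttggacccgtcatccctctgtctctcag
Hadhb: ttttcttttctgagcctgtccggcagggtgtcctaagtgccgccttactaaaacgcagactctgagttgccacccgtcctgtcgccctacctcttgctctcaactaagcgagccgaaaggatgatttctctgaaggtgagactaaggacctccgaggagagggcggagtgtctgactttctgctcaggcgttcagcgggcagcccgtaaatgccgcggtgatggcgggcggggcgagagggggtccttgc
Ech1: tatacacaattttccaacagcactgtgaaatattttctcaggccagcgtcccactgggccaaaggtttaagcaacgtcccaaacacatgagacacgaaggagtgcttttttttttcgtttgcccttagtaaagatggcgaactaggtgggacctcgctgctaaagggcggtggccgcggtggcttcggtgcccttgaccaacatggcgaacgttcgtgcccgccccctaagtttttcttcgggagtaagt
RefSeq promoters were matched for 9 of the 10 genes, all but Decr1. Motifs were searched from 250 bases before to 50 bases after each start. Acadvl held AGGTCA at positions -87 to -82 from its start, and Acadm held it on the other strand, as TGACCT, at positions -249 to -244. The other 7 held none, and 16.3% of all 32851 promoters of the same length held at least 1 copy. The direct repeat 1 element, in which the hexamer stands next to a second copy after 1 base, was searched on both strands with up to 2 mismatches and was found in 0 of the 9 and in 3.86% of all promoters. The longer element TCAAGGTCA, which also contains the hexamer, was found in 0 of the 9 and in 0.423% of all promoters. Hadha and Hadhb are a divergent pair on chromosome 5 with 85 bases between them in the GENCODE annotation. RefSeq places the starts elsewhere, and the RefSeq promoter sequences overlap by 228 bases, so the Hadhb line above also covers most of that of Hadha. The stretch shown for Ech1 likewise ends at 28825337, past the GENCODE gene start at 28825217. Matches and their absence describe these stretches of sequence only.

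Library totals ranged from 6743109 to 9364336 counts, and a single count came to between 0.107 and 0.148 CPM, the unit of counts after scaling for library size. The 10 genes took 0.818 to 1.234% of the counts of a library. The first principal component held 31.2% of the variance and set Ctrl_HF replicates 2 and 3 (scores 48.5 and 23.5) apart from the other 7 libraries (-23.5 to 5.12). Tbx5, which is known to be part of the MGTH2A transgene, averaged 29.0 ± 2.71, 23.7 ± 3.47 and 144 ± 43.5 CPM (SD, n = 3) in Ctrl, Ctrl_HF and TTg_HF, and its rise in TTg_HF over Ctrl_HF passed the test (edgeR adjusted p = 0.00253). Other genes of the transgene are not shown here. All 12 cardiomyocyte markers were present, with summed levels of 65030 to 73050 CPM in Ctrl, 56260 to 60390 in Ctrl_HF and 57810 to 61150 in TTg_HF.

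In mice on the high-fat diet with L-NAME, 6 of the 10 genes rose against chow controls and none fell. The auxiliary genes Decr1 (61.2% higher), Ech1 (39.7%) and Eci1 (36.8%) all rose. Among the 6 core genes the dehydrogenases for the longest chains, Acadvl (27%) and Acadl (20.8%), rose with the trifunctional subunit Hadha (27%), while Acadm, Acads and Hadhb did not pass the test. Etfdh did not pass either. A gene was called when its edgeR quasi-likelihood p, adjusted by Benjamini-Hochberg over all tested genes, was under 0.05, and 1.79% of all tested genes were called higher in this comparison, 1.82% lower and 3.61% in either direction. The median log2 fold change was 0.31 over the 10 genes, 0.24 over the core, 0.48 over the auxiliary genes and 0.00883 over all tested genes. In 8 of the 10 genes, all but Acadm and Hadhb, every Ctrl_HF library lay above every Ctrl library, which held for 11.5% of all tested genes. The count fell to 1 of the 10 without Ctrl replicate 2, to 2 without Ctrl replicate 3 and in a fit of the 2 groups alone, to 3 with the authors' factors and without TTg_HF replicate 2 or 3, and to 4 without Ctrl_HF replicate 2 or 3.

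**Figure D1:**
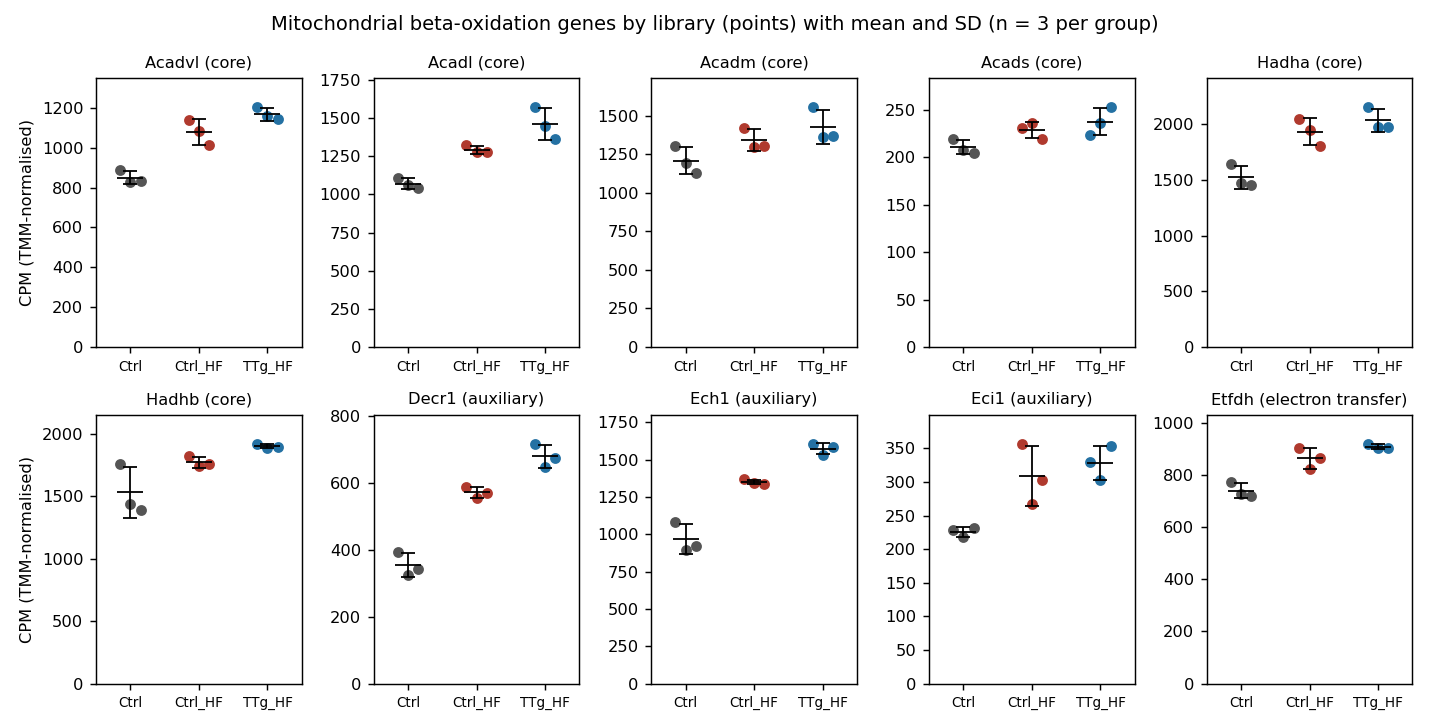
Level of each of the 10 genes in each library, in TMM-normalised CPM on axes that start at 0, with points for libraries and bars for the mean and SD of the 3 libraries of a group. Decr1 climbs from 325 to 394 CPM in Ctrl to 555 to 587 in Ctrl_HF and 646 to 716 in TTg_HF, while the groups of Acads lie close together, from 205 to 253 CPM.

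Decr1, the mitochondrial dienoyl-CoA reductase that acts on polyunsaturated fatty acids, changed most (chr4:15917240-15945507, minus strand). Its levels in replicates 1 to 3 were 394, 325 and 343 CPM in Ctrl, 587, 555 and 570 in Ctrl_HF, and 716, 646 and 673 in TTg_HF. The 3 groups did not overlap. The rise in Ctrl_HF was 0.69 on the log2 scale (SE 0.0816, edgeR adjusted p = 0.00484), the 9th smallest p of all tested genes, and it passed under all 17 alternative analyses, with adjusted p from 1.24e-09 to 0.0272.

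Ech1, a dienoyl-CoA isomerase that shifts double bonds so that they can be metabolised, is encoded at chr7:28825217-28832247 on the plus strand. Its libraries gave 1081, 897 and 922 CPM in Ctrl, 1368, 1345 and 1337 in Ctrl_HF and 1605, 1531 and 1585 in TTg_HF. Again the groups stood apart without overlap, and Ctrl replicate 1 was the highest of its group, as it was for 9 of the 10 genes. The rise in Ctrl_HF was 0.48 (log2, SE 0.0741, edgeR adjusted p = 0.00948). It passed in 16 of 17 alternatives and missed the threshold without Ctrl replicate 2 (adjusted p = 0.0531).

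Eci1, an enoyl-CoA isomerase needed for fatty acids with a double bond at an odd position, lies at chr17:24426641-24439348 on the plus strand. It stood at 228, 218 and 232 CPM in Ctrl, 357, 267 and 303 in Ctrl_HF, and 330, 303 and 354 in TTg_HF. Both model groups lay above Ctrl but overlapped each other, and Ctrl_HF was the most scattered (SD 45.1 CPM). The rise in Ctrl_HF was 0.45 (log2, SE 0.1043, edgeR adjusted p = 0.0404), close to the threshold. It passed in 8 of 17 alternatives and was lost with the authors' factors, in a fit of the 2 groups alone and without any 1 of Ctrl replicates 1 to 3, Ctrl_HF replicate 3 or TTg_HF replicates 1 to 3, with adjusted p of up to 0.165.

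Acadvl, the dehydrogenase for very long chains, is on the inner mitochondrial membrane (gene at chr11:70010183-70015411, minus strand). Its libraries gave 887, 828 and 835 CPM in Ctrl, 1141, 1085 and 1013 in Ctrl_HF and 1204, 1159 and 1143 in TTg_HF, with no overlap between any groups. The rise in Ctrl_HF was 0.35 (log2, SE 0.0652, edgeR adjusted p = 0.0201) and was lost without Ctrl replicate 2 (0.105), without Ctrl replicate 3 (0.0760) and in the 2-group fit (0.0775). Acadvl shares 1151 of its 2686 exon bases with Dvl2 on the opposite strand. Dvl2 held 482 counts over all libraries beside 74912 for Acadvl. How strand was treated is not given, so the assignment of reads in the shared stretch is uncertain.

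Acadl, the dehydrogenase for long chains, which in mice handles a large part of long-chain oxidation, lies at chr1:66830839-66863277 on the minus strand. Its levels were 1109, 1060 and 1044 CPM in Ctrl, 1324, 1279 and 1279 in Ctrl_HF and 1572, 1448 and 1367 in TTg_HF, again 3 groups without overlap. The rise in Ctrl_HF was 0.27 (log2, SE 0.0655, edgeR adjusted p = 0.0469), only just past the threshold. It held in 7 of 17 alternatives and was lost with the authors' factors, with no filter on low counts, in the 2-group fit, and without any 1 of Ctrl replicates 1 to 3, Ctrl_HF replicates 2 and 3 or TTg_HF replicates 2 and 3 (adjusted p of up to 0.182).

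The dehydrogenases for shorter chains gave smaller values. Acadm, for medium chains (chr3:153922357-153944632, minus strand), stood at 1304, 1193 and 1132 CPM in Ctrl and 1424, 1300 and 1302 in Ctrl_HF, so that Ctrl replicate 1 lay among the Ctrl_HF libraries. Its log2 fold change was 0.15 (95% interval -0.02 to 0.32, edgeR adjusted p = 0.311). Acads, for short chains (chr5:115110299-115119346, minus strand), was at 219, 208 and 205 CPM in Ctrl and at 231, 236 and 220 in Ctrl_HF, groups that did not overlap but lay close together. Its log2 fold change was 0.12 (95% interval -0.05 to 0.28, adjusted p = 0.404), so a rise of up to 21.8% lies within the interval. Relative to Acads in the same library and to the mean of Ctrl, Acadvl was between 0.189 and 0.293 log2 units higher in Ctrl_HF and between -0.0186 and 0.0146 in Ctrl, a difference between genes that was not tested.

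The subunits of the trifunctional protein lie head to head (Hadha at chr5:30118304-30155162 on the minus strand, Hadhb at chr5:30155248-30184593 on the plus strand). Hadha, which carries the hydratase and the second dehydrogenase, gave 1646, 1473 and 1455 CPM in Ctrl and 2050, 1954 and 1804 in Ctrl_HF, without overlap. It rose by 0.34 (log2, SE 0.0733, edgeR adjusted p = 0.0294), a call lost with the authors' factors, in the 2-group fit and without any 1 of Ctrl replicates 2 and 3, Ctrl_HF replicate 2 or TTg_HF replicates 2 and 3 (adjusted p of 0.0509 to 0.144). Hadhb, the thiolase subunit, gave 1760, 1438 and 1389 CPM in Ctrl and 1819, 1737 and 1755 in Ctrl_HF. Ctrl replicate 1 lay above Ctrl_HF replicates 2 and 3, the group SD of Ctrl was 202 CPM, and the log2 fold change of 0.21 did not pass (SE 0.0831, adjusted p = 0.180), though it did without Ctrl replicate 1 (0.33, adjusted p = 0.0272). The Hadha to Hadhb ratio of counts was 0.935 to 1.048 in Ctrl, 1.028 to 1.127 in Ctrl_HF and 1.045 to 1.124 in TTg_HF, ranges that overlap. A processed pseudogene of Hadhb, Gm13910, is 99.79% identical over 1428 bases and was listed with 0 counts, so reads that match both are uncertain.

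Etfdh, which hands the electrons of all the acyl-CoA dehydrogenases to ubiquinone, lies at chr3:79603788-79629500 on the minus strand. It gave 773, 727 and 718 CPM in Ctrl, 901, 823 and 864 in Ctrl_HF and 918, 902 and 903 in TTg_HF, groups without overlap. Its log2 fold change in Ctrl_HF was 0.22 (SE 0.0622) with an edgeR adjusted p of 0.0746, while DESeq2 gave 0.0347. Its fold change was close in size to the core median of 0.24.

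**Figure D2:**
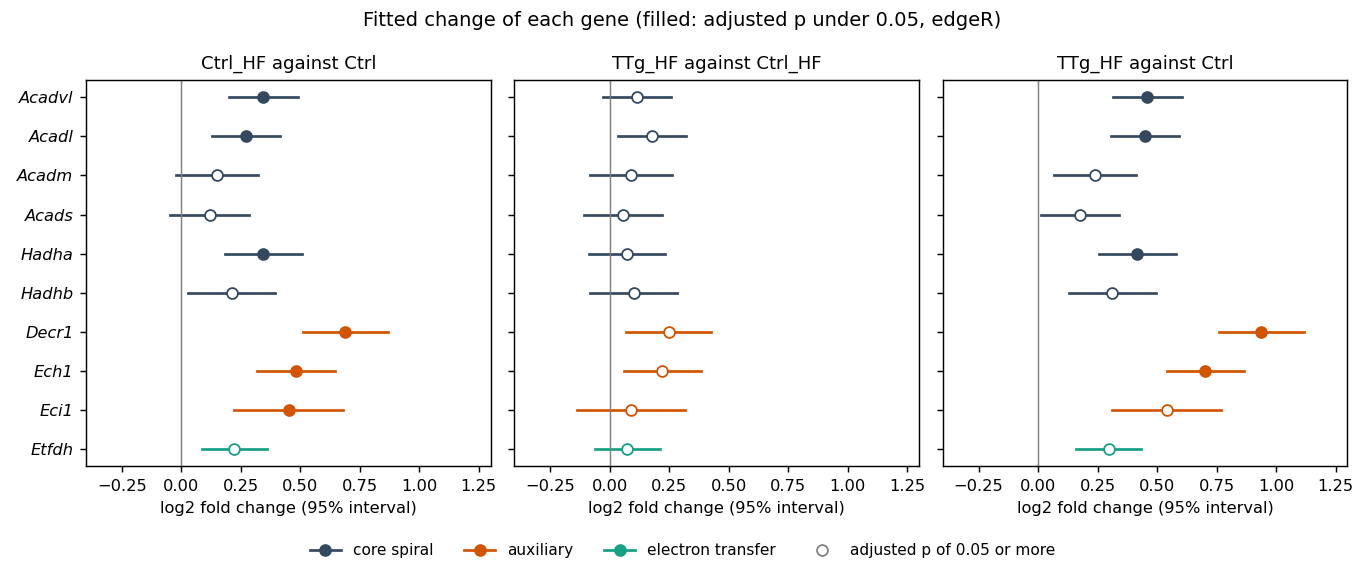
Log2 fold change of each gene (points) with its 95% interval (lines) in the 3 comparisons, coloured by role, filled where the edgeR adjusted p is under 0.05. The left and right panels share the Ctrl libraries, and in the middle panel all 10 points lie above 0 and none is filled.

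With the transgene added to the model, none of the 10 genes was called in TTg_HF against Ctrl_HF. Of all tested genes 0.0868% were called (0.0474% higher and 0.0395% lower), which is 11 genes. DESeq2 called 339 genes in this comparison and also 0 of the 10, and without Ctrl_HF replicate 1 edgeR called 665 genes and 0 of the 10. All 10 fold changes were above 0, with medians of 0.10 over the core, 0.22 over the auxiliary genes and -0.000968 over all genes. This was shared with 29 of 30 oxidative phosphorylation genes (median 0.07) and 17 of 18 citric acid cycle genes (0.07). It held for 3 of 7 other partners of the electron transfer flavoprotein. At an unadjusted p under 0.05, 3 of the 10 were higher, beside 1807 of all 12670 tested genes in either direction. Decr1 had a log2 fold change of 0.25 (SE 0.0811, unadjusted p = 0.0106, edgeR adjusted p = 0.207), Ech1 of 0.22 (SE 0.0739, 0.0122, adjusted p = 0.212) and Acadl of 0.18 (SE 0.0655, 0.0204, adjusted p = 0.253). In 6 genes (Acadvl, Acadl, Hadhb, Decr1, Ech1 and Etfdh) the TTg_HF libraries all lay above the Ctrl_HF libraries, against 9.31% of all tested genes. The 95% intervals of the other 7 genes all included 0. The widest, that of Eci1, ran from -9.19% to 24.6%, so for this gene a change within that range remained possible.

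Against Ctrl, TTg_HF showed 5 of the 10 genes higher and none lower. This comparison shares the Ctrl libraries with that of Ctrl_HF and the TTg_HF libraries with the preceding one, so its values are not independent of either. Decr1 rose by 0.94 on the log2 scale (SE 0.0819, edgeR adjusted p = 7.26e-04), the 3rd smallest p of all tested genes, and Ech1 by 0.70 (SE 0.0743, adjusted p = 0.00252), and both passed under all 17 alternatives. Acadvl rose by 0.46 (adjusted p = 0.0112), Acadl by 0.45 (0.0112) and Hadha by 0.42 (0.0334). Of all tested genes 0.284% were called higher in this comparison, 0.182% lower and 0.466% in either direction. The TTg_HF libraries lay above the Ctrl libraries in all 10 genes, against 9.23% of all tested genes, and all 6 model libraries lay above Ctrl in 8 of the 10, against 3.54%. Of the auxiliary genes Eci1 missed the threshold (0.54, SE 0.1043, adjusted p = 0.0549), though it passed with DESeq2 (adjusted p = 0.00172). Acadm (0.24, adjusted p = 0.310), Acads (0.18, 0.493), Hadhb (0.31, 0.173) and Etfdh (0.30, 0.0812) did not pass.

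The calls of Acadvl and Acadl in TTg_HF against Ctrl were lost without Ctrl replicate 2, without Ctrl replicate 3 and without TTg_HF replicate 2, and that of Acadvl also without TTg_HF replicate 1, with adjusted p of 0.0503 to 0.0845. That of Hadha was lost with the authors' factors and without any 1 of Ctrl replicates 2 and 3 or TTg_HF replicates 1 to 3 (0.0560 to 0.212).

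On average the 3 auxiliary genes stood further above Ctrl than the 6 core genes in every model library. For each library the mean log2 level of the 3 auxiliary genes and of the 6 core genes was taken relative to the mean of Ctrl. The core was 0.189 to 0.298 above Ctrl in Ctrl_HF and 0.319 to 0.391 in TTg_HF, and the auxiliary genes were 0.459 to 0.633 and 0.655 to 0.768 above it. The auxiliary minus the core value was -0.055 to 0.0427 in Ctrl, 0.220 to 0.341 in Ctrl_HF and 0.336 to 0.445 in TTg_HF, so that the ranges of Ctrl and of either model group did not overlap and those of the model groups did. Decr1 and Ech1 each lay above the core mean in every model library (0.415 to 0.629 and 0.208 to 0.398), while Eci1 ranged from 0.00380 to 0.361. Summed over genes, the auxiliary CPM were 23.2 to 24.7% of the core CPM in Ctrl, 28.6 to 30.0% in Ctrl_HF and 30.7 to 32.6% in TTg_HF. The ratio of Decr1 to Acadm counts, which no scaling between libraries can change, was 0.273 to 0.303 in Ctrl, 0.412 to 0.438 in Ctrl_HF and 0.460 to 0.492 in TTg_HF.

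The difference between the median fold change of the auxiliary and the core genes was 0.24 between Ctrl_HF and Ctrl, 0.13 in TTg_HF against Ctrl_HF and 0.34 in TTg_HF against Ctrl (log2). Leaving out 1 library at a time gave 0.21 to 0.29, 0.10 to 0.14 and 0.32 to 0.35. The contrast between the roles is a description of 3 genes beside 6, and no test was made of it.

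**Figure D3:**
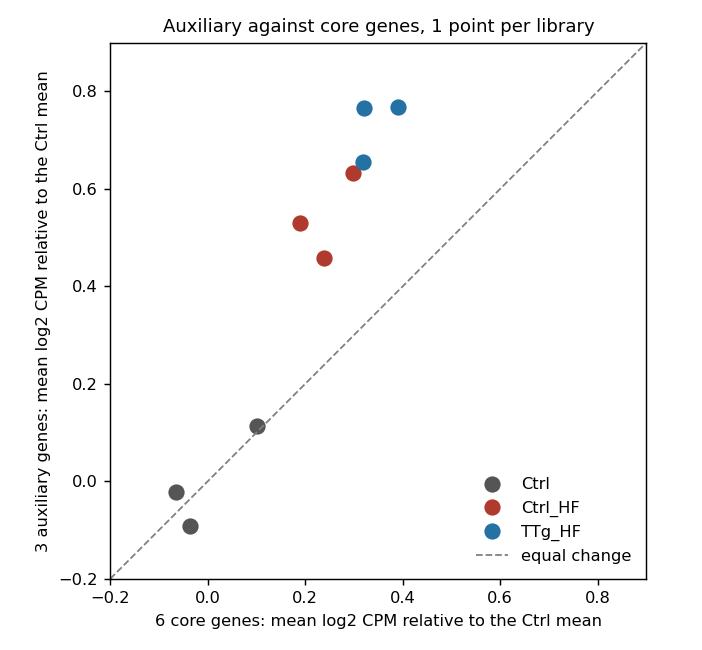
Each point is a library, placed by the mean log2 CPM of the 6 core genes (horizontal) and of the 3 auxiliary genes (vertical), both relative to the mean of Ctrl, with a dashed line for equal change. The Ctrl libraries lie on both sides of the line and all 6 model libraries lie above it, by 0.220 to 0.445.

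Levels of different genes were compared per length of the principal transcript. In Ctrl the order was Ech1 (763 ± 79.0 CPM per kb, SD, n = 3), Hadhb (747 ± 98.6), Acadm (591 ± 42.5), Acadl (559 ± 17.6), Acadvl (392 ± 14.8), Hadha (380 ± 26.3), Etfdh (311 ± 12.4), Eci1 (199 ± 6.53), Decr1 (120 ± 12.1) and Acads (113 ± 4.01). The neighbours Ech1 and Hadhb, Acadm and Acadl, Acadvl and Hadha, and Decr1 and Acads differed by less than their spread. In TTg_HF Ech1 reached 1242 ± 30.2 and Decr1 229 ± 11.8 CPM per kb. The order depends on the transcript taken as the length, since over all annotated exon bases Acadl came first in Ctrl (534 CPM per kb of exon) and Ech1 followed (423).

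Across the 9 libraries the genes with the pattern most like Decr1, by Pearson's r of log2 CPM among 8440 genes of at least 10 CPM, were Ech1 (r = 0.995), Fabp3 (0.990), Fbp2 (0.982), Ephx2 (0.980) and Acadvl (0.980). For Etfdh they were Ephx2 (0.992), Fabp3 (0.985), Acot1 (0.984), Decr1 (0.978) and Vwa3a (0.976). For the mean of the core they were Acaa2 (0.983), Ech1 (0.981), Decr1 (0.976), Fabp3 (0.974) and Etfdh (0.973). Fabp3, the fatty acid binding protein of heart muscle, averaged 1974 ± 110, 2573 ± 97.4 and 2716 ± 33.0 CPM in the 3 groups. Within the 10 genes the lowest r was that of Acadm with Acads (0.590). All these values come from the same 9 libraries and are dominated by the distance of Ctrl from the model groups, so they are given without a p.

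Of 16 other genes of mitochondrial beta-oxidation and nearby steps, edgeR called 0 higher and 3 lower in Ctrl_HF than in Ctrl. There were 5 log2 fold changes above 0 (Acaa2, Acat1, Eci2, Etfa and Hadh), 11 below and a median of -0.15. Pcca, Pccb, Mcee and Mut, which belong to propionyl-CoA breakdown rather than to beta-oxidation, were all below 0. At an unadjusted p under 0.05, 3 of the 16 were higher and 6 lower, and DESeq2 called 1 higher and 3 lower. Of all 12670 tested genes 2614 were under that unadjusted threshold in either direction, and DESeq2 called 841. How this list differs from the 10 genes was not tested. The 3 called lower were Echs1, the hydratase for short chains (-0.38, edgeR adjusted p = 0.0205), and Mut (-0.56, 0.0281) and Pcca (-0.38, 0.0476) of propionyl-CoA breakdown. Acaa2, a thiolase of the matrix, had a log2 fold change of 0.30 (adjusted p = 0.0564) and was called in TTg_HF against Ctrl (0.47, adjusted p = 0.0209). Among 7 tested partners of the electron transfer flavoprotein outside fatty acid oxidation 3 were lower, all dehydrogenases of amino acid breakdown. These were Acadsb (-0.65, adjusted p = 0.0068), Gcdh (-0.79, 0.0068) and Ivd (-0.85, 0.0104). The same 3 were lower in TTg_HF against Ctrl.

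Activation and carnitine entry, the steps that bring fatty acids to the spiral, had 1 of 7 genes higher in Ctrl_HF and none lower (median 0.14). It was Slc25a20, the carnitine-acylcarnitine carrier of the inner membrane, which averaged 145, 222 and 244 CPM in the 3 groups (0.61 in Ctrl_HF, SE 0.0855, edgeR adjusted p = 0.0068). Cpt2 (0.25, adjusted p = 0.0877) and Cpt1b (0.29, 0.110) did not pass, and Cpt2 was called with Slc25a20 in TTg_HF against Ctrl (0.42, adjusted p = 0.0289). Of 11 other tested PPAR targets 6 were higher and none lower (median 1.01). They included Pdk4, which restrains glucose oxidation (2.38, edgeR adjusted p = 0.00845), the thioesterases Acot1 (2.22, 0.0156) and Acot2 (1.21, 0.0068), the lipid droplet protein Plin5 (0.85, 0.0348) and Fabp3 (0.38, 0.00995). Acot1 and Acot2 are close paralogues, so reads may be split between them. For each of these named genes but Fabp3 the log2 fold change was larger in value than that of Decr1, a difference that was not tested.

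Of 12 tested peroxisomal beta-oxidation genes 0 were called in Ctrl_HF against Ctrl by edgeR, where 1 was higher and 4 lower at an unadjusted p under 0.05 and DESeq2 called 1 higher and 1 lower. Their median was -0.08, with Abcd2 at -0.78 (adjusted p = 0.0720) and Amacr at -0.38 (0.1). The nuclear receptors and other regulators of the pathway gave 0 calls of 13 (0 higher and 2 lower unadjusted, 0 by DESeq2) and a median of -0.19, with Lpin1 at -0.33 (adjusted p = 0.0872), Sirt3 at -0.26 (0.191) and Ppargc1b at -0.28 (0.291). Ppara itself averaged 63.6 ± 11.3, 55.2 ± 21.4 and 55.0 ± 5.32 CPM. Downstream of the spiral, all 18 citric acid cycle genes had log2 fold changes below 0 (median -0.16) with 0 called by edgeR, 10 lower at an unadjusted p under 0.05 and 4 lower by DESeq2. Of 30 nuclear genes of oxidative phosphorylation 29 were below 0 (median -0.14), 1 was called lower, Atp5o (-0.28, adjusted p = 0.0447), 14 were lower unadjusted and 6 by DESeq2. Beside these counts, 2614 of all 12670 tested genes were under 0.05 unadjusted in Ctrl_HF against Ctrl, in either direction. In TTg_HF against Ctrl_HF edgeR called 0 genes of every one of these 8 lists, and DESeq2 called 1 peroxisomal gene. Log2 fold changes there were above 0 in 12 of 16 other mitochondrial (median 0.09), 7 of 7 carnitine entry (0.17) and 9 of 12 peroxisomal genes (0.18). The same held for 9 of 13 regulators (0.08), 8 of 11 PPAR targets (0.08), 17 of 18 citric acid cycle (0.07) and 29 of 30 oxidative phosphorylation genes (0.07). Of the flavoprotein partners 3 of 7 were above 0 (-0.0057).

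**Figure D4:**
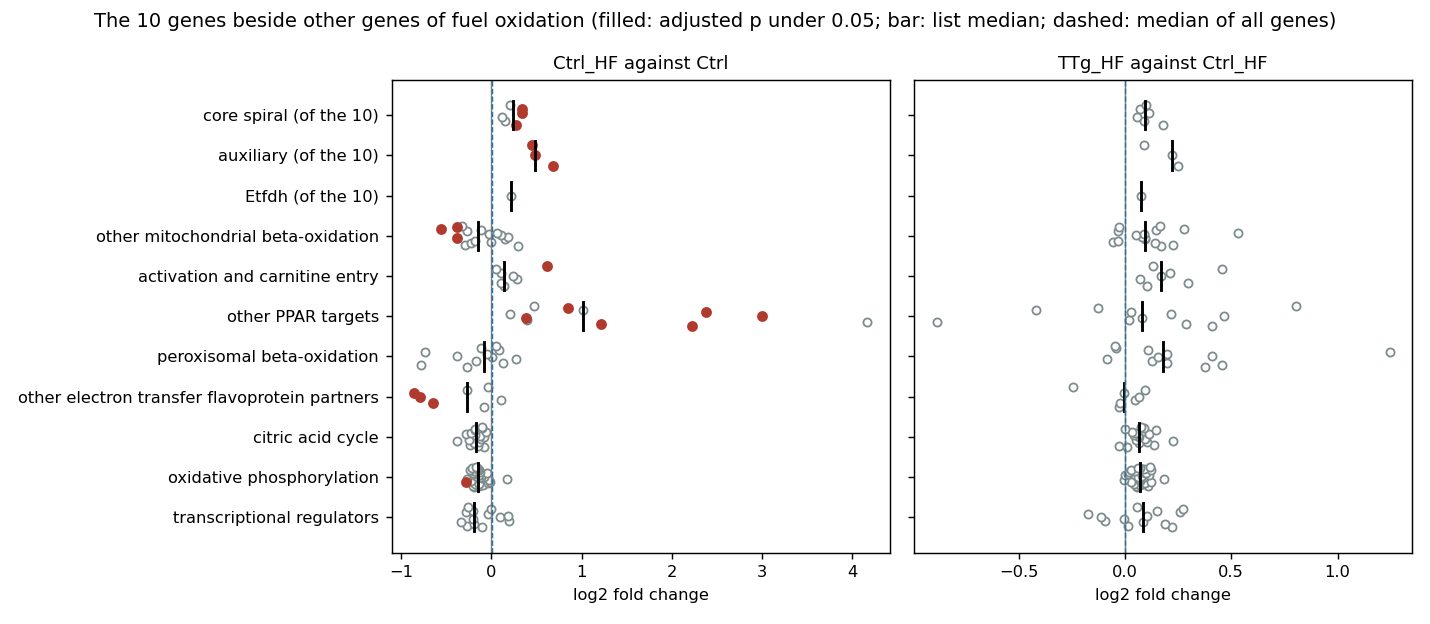
Log2 fold change of every tested gene of each list (points, filled where the edgeR adjusted p is under 0.05) with the list median as a bar and the median of all genes as a dashed line. The list of other mitochondrial beta-oxidation also holds genes of propionyl-CoA breakdown. On the left the core and auxiliary medians (0.24 and 0.48) lie above 0 while those of the citric acid cycle (-0.16) and oxidative phosphorylation (-0.14) lie below, and on the right no point is filled.

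The share of cells of each type can move levels in a whole ventricle, and fewer cells of a type and less RNA per cell cannot be told apart in bulk RNA. Of the 12 cardiomyocyte markers 3 were lower in Ctrl_HF (Mybpc3, Myl3 and Myoz2) and none higher. Scaled to the summed cardiomyocyte markers instead, all 10 genes were called higher in Ctrl_HF and in TTg_HF, each against Ctrl. Of all 12670 tested genes 2439 and 382 were called with this scaling, in either direction. The median of all genes moved to 0.27 for Ctrl_HF and 0.24 for TTg_HF. Relative to that shift the median of the 10 genes was 0.29 and 0.43, beside 0.30 and 0.43 with TMM. With this scaling the medians of the other mitochondrial (0.11), peroxisomal (0.17), regulator (0.07), citric acid cycle (0.09) and oxidative phosphorylation (0.12) lists turned positive in Ctrl_HF against Ctrl and lay at -0.10 to -0.20 relative to the median of all genes, and the lower calls of Echs1, Mut and Pcca were lost.

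Markers of other cells also moved with the groups. The summed CPM of 10 fibroblast markers were 2076 to 2211 in Ctrl, 2345 to 3278 in Ctrl_HF and 2659 to 2987 in TTg_HF. Those of 9 macrophage markers were 287.5 to 351.9, 383 to 510.3 and 377.2 to 433.4, and those of 9 endothelial markers 1260 to 1619, 1516 to 1714 and 1558 to 1809. Those of 8 mural markers were 1415 to 1659, 1268 to 1379 and 1286 to 1397, and those of 5 blood markers 427.6 to 656.7, 772.8 to 942.8 and 190.1 to 834. The 9 lymphocyte markers summed to 7.81 CPM at most. The 8 adipocyte markers summed to 15.8 to 19.7, 25.2 to 31.3 and 28.1 to 31.8 CPM, nearly all from Cidea, while Adipoq had at most 4 counts and Ucp1 at most 1 count in any library. The 8 skeletal muscle markers summed to 1792 to 2519, 2629 to 2962 and 1822 to 2072 CPM, nearly all from Ckm and Acta1, while Myh4 was at 0 throughout. The part of these shifts in the results on beta-oxidation genes was not tested.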

How the data were processed

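The deposited table has 3 columns per library, per the file headers. The first holds whole-number counts per gene symbol, which the authors called expression values. The second holds a normalized signal that the authors made as the count times 1 factor per library, tested on the file (largest relative deviation 1.08e-04). The third holds log2 of that signal plus 1, which the authors called transformed values. Only the counts were tested. Reads were placed on mm10, per the submitters' processing notes. Aligner and counter, and how strand and reads with several matches were treated, remain not given in the sources used here. Date-like symbols from a spreadsheet were kept as they stood in 26 rows.

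Genes were filtered with filterByExpr of edgeR 4.0.16 (minimum count 10, minimum total 15), scaled by TMM and fitted with 1 robust quasi-likelihood model of group over the 9 libraries in R 4.3.3, with two-sided tests and Benjamini-Hochberg adjustment over 12670 genes at 0.05. The biological coefficient of variation had a median of 0.131. The test was checked on simulated data. CPM are TMM-normalised, and intervals are 95% intervals of the fit. Replicates of a group differed by more than counting noise. Coordinates, transcripts and overlaps are from GENCODE vM21 (GRCm38), promoters from RefSeq, and near copies from blastn 2.17.0. DESeq2 1.42.0, other scalings (the authors' factors among them) and filters, a 2-group fit, a replicate block and leaving out each library were the alternatives.

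The 10 genes and all lists were chosen with earlier results of these data known. All 10 were named, with the 3 genes of lowest p in Ctrl_HF against Ctrl of each other list, any further gene called where these were few, and the 5 most alike genes for Decr1, Etfdh and the core mean. A few genes that this rule names are left out. Ppara, Eci2, Acat1, Etfa, Pccb and Mcee were named after their values were seen. Tbx5 is on none of the lists and was named outside this rule.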

Additional observations from a re-analysis of the deposited data

How the results depend on the processing

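Counts of calls depended on the processing. Over the 10 genes, 3 comparisons and 17 alternatives, 445 values kept their direction and side of the threshold, 43 lost a call, 21 gained one and 1 changed sign, Eci1 in TTg_HF against Ctrl_HF without Ctrl_HF replicate 2 (-0.0076, up to 0.2059 without Ctrl_HF replicate 1). None of the 10 genes was called lower in any alternative, and none was called in TTg_HF against Ctrl_HF. The genes higher in Ctrl_HF numbered 6, and became 3 with the authors' factors, 10 when scaled to cardiomyocyte markers, 2 in the 2-group fit and 1 to 6 without single libraries (1 without Ctrl replicate 2, 2 without Ctrl replicate 3, 3 without TTg_HF replicate 2 or 3). Those higher in TTg_HF against Ctrl numbered 5, and became 10 when scaled to cardiomyocyte markers and 2 to 7 without single libraries (2 without Ctrl replicate 2, Ctrl replicate 3 or TTg_HF replicate 2, 3 without TTg_HF replicate 1).

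Over all genes, 458 calls in Ctrl_HF against Ctrl became 2439 when scaled to cardiomyocyte markers, 841 with DESeq2, 126 in the 2-group fit and 85 to 1122 without single libraries, the ends without Ctrl replicate 2 and Ctrl_HF replicate 1. In TTg_HF against Ctrl_HF 11 became 109 with no filter, 339 with DESeq2, 0 in the 2-group fit and 2 to 665 without single libraries, the ends without TTg_HF replicate 2 and Ctrl_HF replicate 1. In TTg_HF against Ctrl 59 became 382 when scaled to cardiomyocyte markers, 118 with no filter, 182 with DESeq2, 117 in the 2-group fit and 24 to 114 without single libraries. The cause was not tested, except that fewer libraries or groups entered those fits. The difference of the auxiliary and core medians moved by less than the spread between libraries in all alternatives.

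Correlations of deviations from the group mean ran from -0.1642 to 0.1973 in 9 pairs of same-numbered libraries, of which 2 were over 0.1. In 18 other pairs they ran from -0.1906 to 0.1669. Deviations from a group mean cancel within the group, so these values cannot decide whether replicate numbers pair the libraries. With the replicate block 415, 12 and 52 genes were called, and Eci1 passed in TTg_HF against Ctrl (adjusted p = 0.0490). No other call of the 10 genes changed with it.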

Other observations

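Hadh, the dehydrogenase that completes the spiral for shorter chains, was scattered in TTg_HF, where it averaged 310 ± 108 CPM (SD, n = 3), beside 205 ± 14.6 in Ctrl and 214 ± 13.8 in Ctrl_HF, and its log2 fold change of 0.53 over Ctrl_HF did not pass (edgeR adjusted p = 0.281). Ehhadh, the bifunctional enzyme of peroxisomal beta-oxidation, had mean levels of 15.2 CPM in Ctrl, 9.14 in Ctrl_HF and 21.6 in TTg_HF, and a log2 fold change of 1.25 in TTg_HF against Ctrl_HF (edgeR adjusted p = 0.105). Vwa8, a mitochondrial protein, was among the genes most like Hadhb and averaged 306, 534 and 577 CPM, with a log2 fold change of 0.80 in Ctrl_HF against Ctrl (edgeR adjusted p = 0.0170). These 3 genes were chosen after their values were seen.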
